A study of Homo sapiens with 12 samples.

Results

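The genes whose response to CHD4 silencing differed from their response to CHD3 silencing were described in 501Mel cells, a human melanoma line. The cells had been transfected for 72 h with an siRNA pool against CHD4 (siCHD4, 3 libraries), with an siRNA pool against CHD3 (siCHD3, 3 libraries) or with a control siRNA (siCtrl, 6 libraries). RNA was profiled by RNA-seq after linear amplification from 6 ng of total RNA. The 3 siCHD4 libraries stand in 1 table with siCtrl replicates 1 to 3 (siCtrl1-3), and the 3 siCHD3 libraries stand in a second table with siCtrl replicates 4 to 6 (siCtrl4-6), so that the responses share no control library. The tables were joined by Ensembl gene ID, and the log2 difference of responses was computed for each gene as the siCHD4 response (siCHD4 minus siCtrl1-3) minus the siCHD3 response (siCHD3 minus siCtrl4-6). A positive value means that the siCHD4 response was the higher one. Counts were present in both tables for 29152 genes, 17357 of them had enough reads to be tested, and 2025 of these were called. A call, higher or lower, required an absolute log2 value over 1 and an adjusted p below 0.05 (edgeR quasi-likelihood test, Benjamini-Hochberg over all genes tested). Levels are given as CPM, counts scaled to a common library total, with errors as SD (n = 3 per group). Errors of log2 values are standard errors worked out from the log2 value and its test statistic.

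CHD3 and CHD4 are ATP-dependent chromatin remodellers and alternative ATPases of NuRD, a complex that both moves nucleosomes and removes acetyl groups from histones. NuRD is best known for holding inactive genes silent, among them genes of other cell lineages, and it also acts at active enhancers and promoters. Because a NuRD complex carries 1 of these ATPases, the comparison of the silencing of each asks which genes respond to 1 helicase and which to both.

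Total counts ranged from 38573214 to 102005319 per library. The log2 profiles of the siCHD3 libraries were about as close to siCtrl1-3 (median Pearson r of 0.978 across genes) as to their own siCtrl4-6 (0.977), and siCtrl1-3 against siCtrl4-6 gave a median of 0.964. siCtrl replicate 3 stood apart, with a TMM scaling factor of 0.791 and r of 0.951 and 0.970 to the other siCtrl1-3 libraries. Without it the median log2 difference over all genes tested was 0.05, against -0.06 with it. A difference of responses holds 4 group means, so it can come from the silenced groups or from a gap between the siCtrl groups. The siCtrl groups carry the same label but stand in different tables, so table and siCtrl group cannot be told apart, and the level in both siCtrl groups is given with each gene. No source states that the libraries of a group came from separate cultures, and p-values measure only the spread between these libraries. In bulk RNA, a change in the share of cells that express a gene and a change in RNA per cell cannot be told apart.

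The difference of responses was higher for 1059 genes (6.10% of those tested) and lower for 966 (5.57%). The siCHD4 response alone called 993 genes higher (5.72%) and 497 lower (2.86%), and the siCHD3 response called 575 higher (3.31%) and 542 lower (3.12%). Across the 17357 genes, the log2 responses had a Pearson r of -0.073 and a Spearman coefficient of -0.042, a description over genes that share libraries and are not independent replicates. Both responses were called in opposite directions for 141 of the 2025 genes (6.96%), of which 105 were higher after siCHD4 and lower after siCHD3 and 36 were the reverse. A further 707 genes (34.9%) were called in the siCHD4 response only, 556 (27.5%) in the siCHD3 response only and 613 (30.3%) in neither response. Fitted responses had opposite signs in 1785 of the called genes (88.1%), against 51.1% of all genes tested. A call selects for a large difference between these same responses, which favours opposite signs, so the shares are a description only. Genes called the same way in both responses numbered 55 higher and 28 lower, and 8 of these 83 were also called in the difference. Whether these counts differ from those of unrelated calls was not tested. Without siCtrl replicate 3 the difference called 1618 genes higher and 1180 lower, 175 of them higher after siCHD4 and lower after siCHD3. The 36 genes of the reverse kind became 60 without siCtrl replicate 1 and 23 without siCHD4 replicate 1 or siCtrl replicate 5. The 105 became 68 without siCHD4 replicate 3 and 69 without siCHD3 replicate 1.

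**Figure D1:**
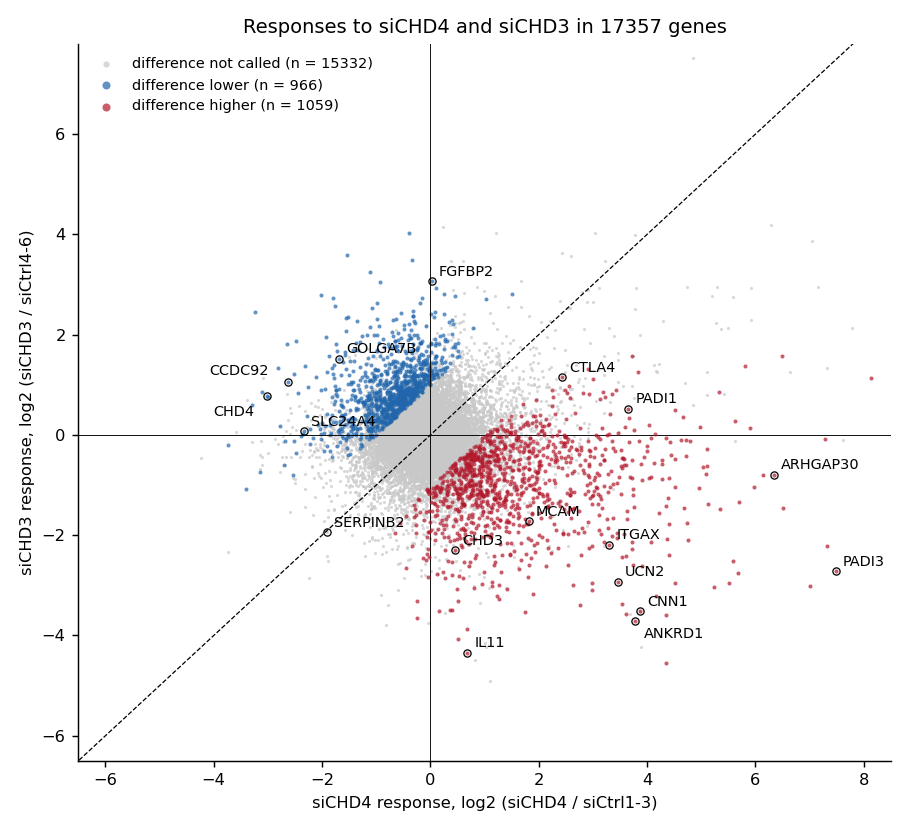
Log2 siCHD3 response (vertical axis) against log2 siCHD4 response (horizontal axis) for the 17357 genes tested, with genes called in the difference of responses coloured by direction. The 1059 genes with a higher difference lie below the diagonal of equal responses, the 966 with a lower difference lie above it, and named genes are marked.

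Each silenced gene was called in the difference of responses, CHD4 lower and CHD3 higher. CHD4 (ENSG00000111642, minus strand of GRCh37 chromosome 12 from 6679248 to 6723690) measured 83.3, 62.8 and 67.9 CPM in the siCHD4 libraries against 589, 531 and 610.1 CPM in siCtrl1-3. In siCHD3, CHD4 had 546, 484 and 568 CPM against 287, 313 and 334 CPM in siCtrl4-6. All siCHD4 libraries lay below every other library, and siCtrl1-3 and siCHD3 overlapped, while siCtrl4-6 lay between. Its log2 difference of responses was -3.79 ± 0.22 (edgeR adjusted p = 4.60e-06). In the siCHD3 response CHD4 passed the p threshold but not the fold threshold, with 0.78 (edgeR adjusted p = 0.00565). CHD4 shares 46.9% of its exon bases with another annotated gene on the same strand, which makes its level uncertain.

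CHD3 (ENSG00000170004, plus strand of GRCh37 chromosome 17 from 7788114 to 7816078) measured 146, 174 and 177 CPM in the siCHD4 libraries against 108, 113 and 140.2 CPM in siCtrl1-3. In siCHD3, CHD3 had 18, 16.7 and 17.1 CPM against 74, 90.4 and 89.7 CPM in siCtrl4-6. The siCHD3 libraries lay below all others without overlap, and all siCHD4 libraries lay above all siCtrl1-3 libraries. Its log2 difference was 2.76 ± 0.23 (edgeR adjusted p = 2.70e-05), made of 0.46 after siCHD4 (edgeR adjusted p = 0.0745, not called) and -2.30 after siCHD3. Of the 16 NuRD subunit genes tested, 2 were higher in the difference (12.5%) and 3 were lower (18.8%), against 6.10% and 5.57% of all genes tested. These counts include the siRNA targets themselves, CHD3 among the higher and CHD4 among the lower genes. The shares are therefore no result about the other subunits. The others called were MTA1 and GATAD2A, both lower, and CHD5, a neural paralogue of CHD3 and CHD4, which was higher. MTA1, a scaffold subunit, had a log2 difference of -1.84 ± 0.38 (edgeR adjusted p = 0.00699) at 56.4 ± 22.1 CPM in siCtrl1-3 and 16.8 ± 3.81 CPM in siCtrl4-6. GATAD2A, named here after its value was seen, had -1.11 ± 0.32 (edgeR adjusted p = 0.0389) at 189 ± 55.1 CPM in siCtrl1-3 and 79.5 ± 16.7 CPM in siCtrl4-6, and its call was kept in 1 of the 12 fits that each left out 1 library. CHD5 had 2.69 ± 0.75 (edgeR adjusted p = 0.0312) at 0.246 ± 0.0616 CPM in siCtrl1-3 and 0.181 ± 0.0954 CPM in siCtrl4-6, and its call was kept in 6 of those 12 fits.

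PADI1 and PADI3 are neighbouring genes for peptidylarginine deiminases, which turn arginine into citrulline in proteins, and both were higher in the difference of responses. PADI3 (ENSG00000142619, plus strand of GRCh37 chromosome 1 from 17575593 to 17610728) had 336, 307 and 426 counts in the siCHD4 libraries against 1, 2 and 1 in siCtrl1-3, and 0, 3 and 1 counts in the siCHD3 libraries against 5, 9 and 12 in siCtrl4-6. Only the siCHD4 libraries held more than 12 counts, and the siCHD3 libraries lay below all siCtrl4-6 libraries. The log2 difference of 10.21 ± 0.79 (edgeR adjusted p = 1.76e-05) combined 7.48 after siCHD4 and -2.72 after siCHD3. With such low counts this size depends on the prior count of the fit and was 8.17 with a prior count of 2.

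PADI1 (ENSG00000142623, plus strand of GRCh37 chromosome 1 from 17531623 to 17572502) measured 3.54, 3.31 and 4 CPM in the siCHD4 libraries against 0.197, 0.243 and 0.478 CPM in siCtrl1-3. In siCHD3, PADI1 had 0.731, 0.938 and 0.556 CPM against 0.367, 0.53 and 0.641 CPM in siCtrl4-6. The siCHD4 libraries stood above all others without overlap, and of the siCHD3 libraries only replicate 3 fell inside the range of siCtrl4-6. The log2 difference was 3.13 ± 0.47 (edgeR adjusted p = 0.00109), from 3.65 after siCHD4 and 0.52 after siCHD3 (edgeR adjusted p = 0.374, not called). The neighbours had fitted siCHD3 responses of opposite sign, of which only that of PADI3 was called, and whether these responses differ was not tested.

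Genes that rose after siCHD4 and fell after siCHD3 had a median log2 difference of 3.60 over 105 genes. Both responses of such a gene passed the fold threshold in opposite directions, so a large difference follows from the sorting itself. UCN2, which encodes a peptide hormone of the corticotropin-releasing factor family (ENSG00000145040, minus strand of GRCh37 chromosome 3 from 48599151 to 48601214), measured 10.4, 11.3 and 11.2 CPM in the siCHD4 libraries against 0.647, 0.988 and 1.44 CPM in siCtrl1-3. In siCHD3, UCN2 had 0.708, 0.763 and 0.504 CPM against 3.85, 5.86 and 5.22 CPM in siCtrl4-6. Its siCHD4 libraries were the highest, siCtrl4-6 came next, and siCtrl1-3 and siCHD3 lay below both and overlapped. The log2 difference was 6.38 ± 0.41 (edgeR adjusted p = 4.83e-06), from 3.46 after siCHD4 and -2.92 after siCHD3. ITGAX, the CD11c integrin subunit of myeloid cells (ENSG00000140678, plus strand of GRCh37 chromosome 16 from 31366455 to 31394320), measured 10.6, 11.3 and 12.9 CPM in the siCHD4 libraries against 0.91, 1.23 and 1.44 CPM in siCtrl1-3. In siCHD3, ITGAX had 0.576, 0.48 and 0.817 CPM against 2.72, 2.81 and 3.11 CPM in siCtrl4-6. The order of the groups was that of UCN2 but the siCHD3 libraries lay below all siCtrl1-3 libraries, and the log2 difference was 5.49 ± 0.33 (edgeR adjusted p = 4.83e-06). MCAM, a cell adhesion molecule of melanoma and endothelium (ENSG00000076706, minus strand of GRCh37 chromosome 11 from 119179239 to 119192231), was expressed far more highly and measured 349, 375 and 388 CPM in the siCHD4 libraries against 89.7, 109.5 and 116 CPM in siCtrl1-3. In siCHD3, MCAM had 70.8, 76.5 and 81.2 CPM against 213, 275 and 267 CPM in siCtrl4-6. The siCHD4 libraries exceeded siCtrl4-6, and both exceeded the other groups without overlap, with a log2 difference of 3.54 ± 0.22 (edgeR adjusted p = 4.83e-06).

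**Figure D2:**
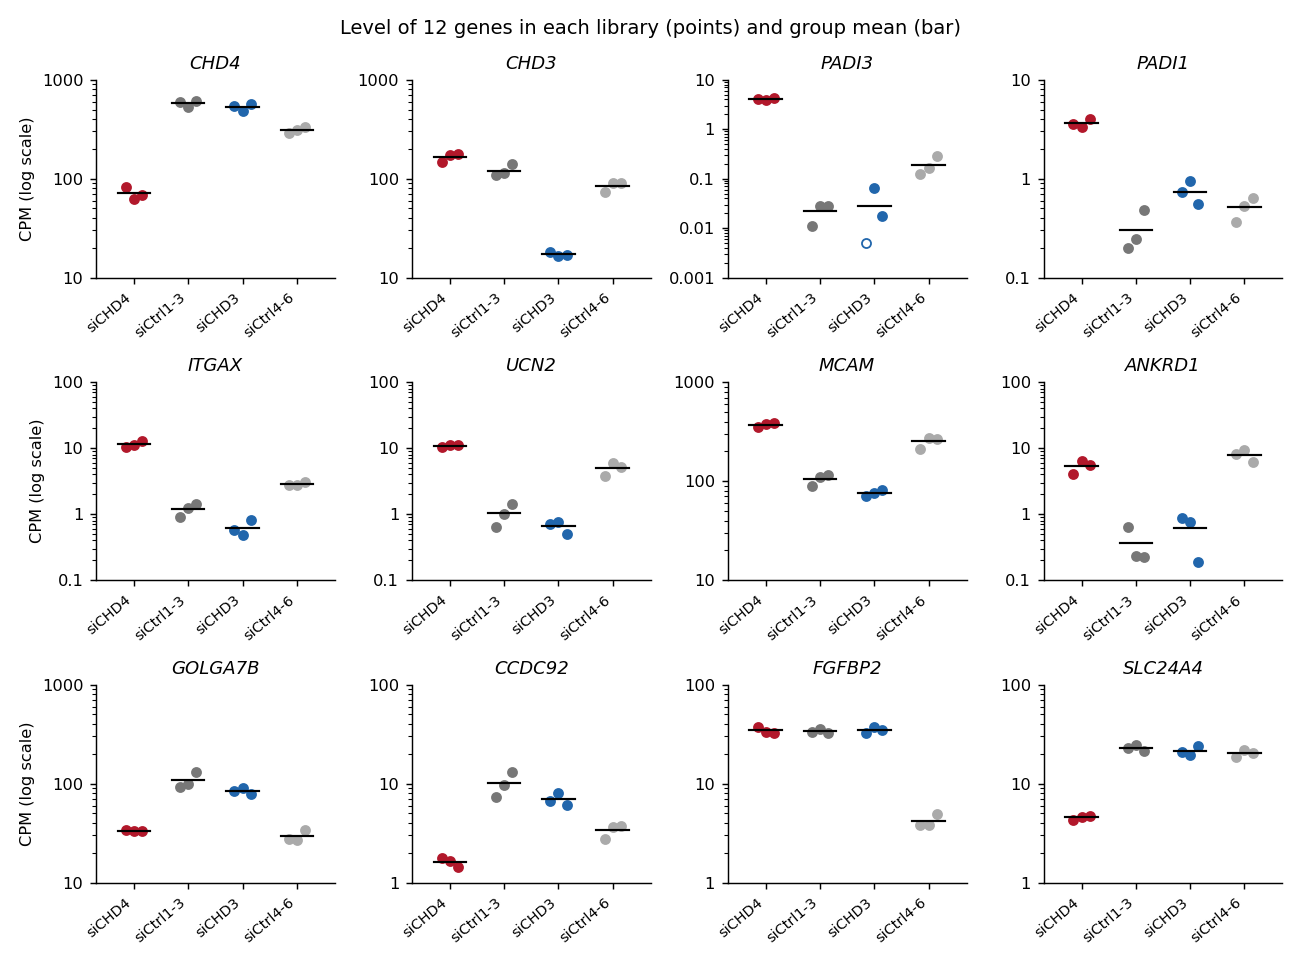
CPM (log axis) of 12 genes in each of the 12 libraries, 1 panel per gene, with the groups in the order siCHD4, siCtrl1-3, siCHD3 and siCtrl4-6 and a bar at each group mean. Silenced groups lie on opposite sides of their own siCtrl libraries for ITGAX and UCN2 (siCHD4 higher, siCHD3 lower) and for GOLGA7B (siCHD4 lower, siCHD3 higher), and a library at 0 counts is drawn as an open symbol at an arbitrary low level.

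Other genes of this kind came from unrelated families. CRYAB, a small heat shock protein, had a log2 difference of 4.21 ± 0.30 (edgeR adjusted p = 1.08e-05) at 18.4 ± 4.71 CPM in siCtrl1-3 and 37.8 ± 6.49 CPM in siCtrl4-6. ATP2B3, a plasma membrane calcium pump, had 6.51 ± 0.60 (edgeR adjusted p = 4.79e-05) at 0.3 ± 0.163 CPM in siCtrl1-3 and 0.73 ± 0.114 CPM in siCtrl4-6. TEX19, a germline gene, had 3.78 ± 0.25 (edgeR adjusted p = 4.83e-06) at 9.33 ± 0.292 CPM in siCtrl1-3 and 3.4 ± 0.211 CPM in siCtrl4-6, and here siCtrl1-3 was the higher of the control groups. CRYAB and TEX19 share over 20% of their exon bases with other genes, so their counts are uncertain. ANKRD1, a cardiac ankyrin repeat protein and target of YAP, reached 7.50 ± 0.70 with fitted responses of 3.78 after siCHD4 and -3.72 after siCHD3. It measured 4.08, 6.45 and 5.6 CPM in the siCHD4 libraries against 0.647, 0.229 and 0.225 CPM in siCtrl1-3. In siCHD3, ANKRD1 had 0.885, 0.763 and 0.191 CPM against 8.23, 9.45 and 6.17 CPM in siCtrl4-6. The highest levels of ANKRD1 were thus in siCtrl4-6 and in siCHD4, whose ranges overlapped, and all siCtrl1-3 and siCHD3 libraries lay below 1 CPM. CNN1, the smooth muscle protein calponin, had a log2 difference of 7.39 ± 0.87 (edgeR adjusted p = 0.000232) at 0.0919 ± 0.106 CPM in siCtrl1-3 and 0.332 ± 0.0659 CPM in siCtrl4-6.

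The siCHD4 response alone was called for 487 genes with a higher difference. RDH8, a retinol dehydrogenase of photoreceptors (ENSG00000080511, plus strand of GRCh37 chromosome 19 from 10123925 to 10132955), measured 58.8, 62.7 and 62 CPM in the siCHD4 libraries against 1.38, 1.82 and 2.19 CPM in siCtrl1-3. In siCHD3, RDH8 had 0.421, 0.371 and 0.956 CPM against 0.71, 0.694 and 0.76 CPM in siCtrl4-6. Every siCHD4 library held 58.8 CPM or more and every other library 2.19 CPM or less, and the siCHD3 and siCtrl4-6 ranges overlapped. Its log2 difference of 5.38 ± 0.43 (edgeR adjusted p = 2.29e-05) was close to its siCHD4 response of 5.10. ARHGAP30, a GTPase-activating protein of blood cells, had 7.14 ± 1.06 (edgeR adjusted p = 0.00102) at 0.096 ± 0.0562 CPM in siCtrl1-3 and 0.0705 ± 0.0212 CPM in siCtrl4-6. IP6K3, an inositol hexakisphosphate kinase of muscle and brain, had 6.95 ± 0.86 (edgeR adjusted p = 0.000346) at 0.0674 ± 0.0635 CPM in siCtrl1-3 and 0.106 ± 0.0503 CPM in siCtrl4-6. CTCFL, the germline paralogue of the insulator protein CTCF, had 5.73 ± 0.64 (edgeR adjusted p = 0.000186) at 0.152 ± 0.0845 CPM in siCtrl1-3 and 0.135 ± 0.0338 CPM in siCtrl4-6. The collagen gene COL6A3 had 4.83 ± 0.44 (edgeR adjusted p = 4.70e-05) at 0.478 ± 0.0512 CPM in siCtrl1-3 and 0.283 ± 0.118 CPM in siCtrl4-6, and PPL, the desmosomal protein periplakin, had 6.03 ± 0.78 (edgeR adjusted p = 0.00047) at 0.604 ± 0.359 CPM in siCtrl1-3 and 0.123 ± 0.0685 CPM in siCtrl4-6. In each of these genes the siCHD4 to siCHD3 gap was larger than the gap between the control groups.

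Further siCHD4 responders came from metabolism, muscle and growth factor signalling. P4HA3, a collagen prolyl hydroxylase subunit, had 3.77 ± 0.32 (edgeR adjusted p = 3.05e-05) at 0.463 ± 0.0717 CPM in siCtrl1-3 and 0.62 ± 0.0591 CPM in siCtrl4-6, and FGGY, a carbohydrate kinase, had 2.84 ± 0.25 (edgeR adjusted p = 3.53e-05) at 2.29 ± 0.211 CPM in siCtrl1-3 and 1.62 ± 0.152 CPM in siCtrl4-6. SRL (sarcalumenin), which binds calcium in the sarcoplasmic reticulum, had 7.01 ± 1.25 (edgeR adjusted p = 0.00306) at 0.0216 ± 0.0215 CPM in siCtrl1-3 and 0.07 ± 0.0622 CPM in siCtrl4-6, and CHRDL2, a BMP inhibitor, had 6.51 ± 1.07 (edgeR adjusted p = 0.0018) at 0.0219 ± 0.038 CPM in siCtrl1-3 and 0.166 ± 0.088 CPM in siCtrl4-6. The remaining genes with the largest differences were GZMM, a granzyme, and SOHLH1, a germ cell transcription factor. They had 3 or fewer counts over at least 1 group, so their size of change is not given. GZMM stood at 0.0215 ± 0.00692 CPM in siCtrl1-3 and 0.0668 ± 0.0273 CPM in siCtrl4-6. SOHLH1 stood at 0.0226 ± 0.0101 CPM in siCtrl1-3 and 0.0219 ± 0.0239 CPM in siCtrl4-6, and its call was lost without siCtrl replicate 6 (edgeR adjusted p = 0.0653). ARHGAP30, IP6K3, CHRDL2, SRL, PPL and, among the genes of other paragraphs, CNN1, RAC2 and FRG2C had 4 to 10 counts over at least 1 group, so that their sizes of change also depend on the prior count.

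The siCHD3 response alone was called lower for 233 genes with a higher difference, and many of these stood high in siCtrl4-6 only. CTGF, a matricellular growth factor and YAP target (ENSG00000118523, minus strand of GRCh37 chromosome 6 from 132269316 to 132272512), measured 34.8, 41.5 and 38.8 CPM in the siCHD4 libraries against 33.7, 25.2 and 26.3 CPM in siCtrl1-3. In siCHD3, CTGF had 22, 20.2 and 20.3 CPM against 90.3, 88.4 and 89.1 CPM in siCtrl4-6. The siCtrl4-6 libraries lay above all others, the siCHD3 libraries lay below all others, and siCHD4 lay above siCtrl1-3, all without overlap. The log2 difference of 2.53 ± 0.23 (edgeR adjusted p = 3.90e-05) held a fall of -2.10 after siCHD3 and 0.43 after siCHD4 (not called). IL11, a cytokine of the interleukin-6 family (ENSG00000095752, minus strand of GRCh37 chromosome 19 from 55875750 to 55881831), measured 0.337, 0.723 and 0.549 CPM in the siCHD4 libraries against 0.263, 0.43 and 0.309 CPM in siCtrl1-3. In siCHD3, IL11 had 0.531, 1.05 and 0.0522 CPM against 10.3, 10.7 and 11.4 CPM in siCtrl4-6. The siCHD4, siCtrl1-3 and siCHD3 ranges overlapped at or below 1.05 CPM and only siCtrl4-6 stood apart. Its log2 difference of 5.03 ± 0.84 (edgeR adjusted p = 0.00199) was nearly equal in size to the gap between the control groups (siCtrl1-3 minus siCtrl4-6 of -5.01), and siCHD4 minus siCHD3 was 0.02.

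Further genes shared this pattern in part. CYR61, a matricellular relative of CTGF, had a log2 difference of 2.68 ± 0.32 (edgeR adjusted p = 0.00026) at 29.7 ± 3.08 CPM in siCtrl1-3 and 143 ± 6.64 CPM in siCtrl4-6. DKK1, a secreted inhibitor of Wnt signalling, had 2.79 ± 0.43 (edgeR adjusted p = 0.00138) at 0.443 ± 0.0342 CPM in siCtrl1-3 and 7.93 ± 0.979 CPM in siCtrl4-6, with siCHD4 minus siCHD3 at -1.37, opposite in sign to the difference of responses. AXL, a receptor tyrosine kinase named after its value was seen, had 3.68 ± 0.82 (edgeR adjusted p = 0.0106) at 0.772 ± 0.47 CPM in siCtrl1-3 and 7.67 ± 0.275 CPM in siCtrl4-6. In contrast, ENO2, the neuronal enolase of glycolysis, differed mainly between the silenced groups. It measured 510.1, 505 and 525 CPM in the siCHD4 libraries against 256, 247 and 473 CPM in siCtrl1-3. In siCHD3, ENO2 had 63.8, 69.5 and 82 CPM against 249.6, 224 and 262 CPM in siCtrl4-6. The siCHD3 libraries lay below all others and the siCHD4 libraries above all others, siCtrl1-3 and siCtrl4-6 overlapped, and the log2 difference was 2.43 ± 0.32 (edgeR adjusted p = 0.000513).

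Among genes with a lower difference, 36 fell after siCHD4 and rose after siCHD3, with a median log2 difference of -2.99. GOLGA7B, a golgin A7 family member (ENSG00000155265, plus strand of GRCh37 chromosome 10 from 99609600 to 99631337), measured 33.7, 33.1 and 33.6 CPM in the siCHD4 libraries against 93.1, 100.2 and 130.4 CPM in siCtrl1-3. In siCHD3, GOLGA7B had 84.2, 90.7 and 78.6 CPM against 27.8, 27.1 and 33.7 CPM in siCtrl4-6. The siCHD4 and siCtrl4-6 libraries were low, siCtrl1-3 and siCHD3 libraries were high, and siCHD4 overlapped siCtrl4-6. The log2 difference was -3.21 ± 0.24 (edgeR adjusted p = 1.24e-05), from -1.69 after siCHD4 and 1.52 after siCHD3. MARVELD1, a MARVEL domain membrane protein on the same chromosome (ENSG00000155254, plus strand of GRCh37 chromosome 10 from 99472930 to 99477907), measured 25.4, 24.8 and 25.6 CPM in the siCHD4 libraries against 79.5, 80.8 and 104 CPM in siCtrl1-3. In siCHD3, MARVELD1 had 58.7, 60.4 and 58.1 CPM against 24.1, 27.6 and 25 CPM in siCtrl4-6. It showed the same arrangement, with a log2 difference of -3.01 ± 0.22 (edgeR adjusted p = 1.13e-05) and a control gap of 1.79. CCDC92, a coiled-coil protein (ENSG00000119242, minus strand of GRCh37 chromosome 12 from 124403207 to 124457378), had a log2 difference of -3.68 ± 0.33 (edgeR adjusted p = 4.05e-05) at 10.1 ± 2.92 CPM in siCtrl1-3 and 3.36 ± 0.517 CPM in siCtrl4-6. MAGEE1, a melanoma antigen family member on the X chromosome, had -3.16 ± 0.27 (edgeR adjusted p = 3.53e-05) at 6.04 ± 0.773 CPM in siCtrl1-3 and 1.32 ± 0.215 CPM in siCtrl4-6, and RIMS3, a synaptic active zone gene, had -3.69 ± 0.38 (edgeR adjusted p = 0.000103) at 4.07 ± 0.721 CPM in siCtrl1-3 and 0.961 ± 0.144 CPM in siCtrl4-6. HCN2, a pacemaker channel, had -3.88 ± 0.61 (edgeR adjusted p = 0.00151) at 46.4 ± 32.1 CPM in siCtrl1-3 and 5.27 ± 1.96 CPM in siCtrl4-6, and RNASE1, the pancreatic-type ribonuclease, had -3.86 ± 0.50 (edgeR adjusted p = 0.00047) at 12.2 ± 2.87 CPM in siCtrl1-3 and 2.71 ± 0.502 CPM in siCtrl4-6. SBK1, a kinase gene, had -3.88 ± 0.56 (edgeR adjusted p = 0.000904) at 2.17 ± 1.23 CPM in siCtrl1-3 and 0.295 ± 0.0939 CPM in siCtrl4-6, and FRG2C, of a multicopy gene family whose reads are hard to assign, had -4.33 ± 0.68 (edgeR adjusted p = 0.0014) at 1.27 ± 0.401 CPM in siCtrl1-3 and 0.0538 ± 0.0563 CPM in siCtrl4-6.

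Falls after siCHD4 without a called siCHD3 response were seen for 220 genes. SLC24A4, a sodium, potassium and calcium exchanger linked to pigmentation (ENSG00000140090, plus strand of GRCh37 chromosome 14 from 92788925 to 92967825), measured 4.31, 4.62 and 4.75 CPM in the siCHD4 libraries against 23, 24.6 and 21.3 CPM in siCtrl1-3. In siCHD3, SLC24A4 had 20.8, 19.3 and 24.2 CPM against 18.8, 21.7 and 20.4 CPM in siCtrl4-6. The siCHD4 libraries lay at 4.75 CPM or less, and the other groups overlapped between 18.8 and 24.6 CPM. The log2 difference of -2.41 ± 0.21 (edgeR adjusted p = 3.90e-05) was thus nearly all siCHD4 response (-2.33), with a control gap of 0.18. MAP2, a neuronal microtubule-associated protein, had -3.21 ± 0.31 (edgeR adjusted p = 6.98e-05) at 26.1 ± 7.66 CPM in siCtrl1-3 and 14.1 ± 2.13 CPM in siCtrl4-6, and SEMA4F, a semaphorin, had -2.57 ± 0.22 (edgeR adjusted p = 3.05e-05) at 29.2 ± 2.17 CPM in siCtrl1-3 and 9.5 ± 0.867 CPM in siCtrl4-6. TPBGL had -3.97 ± 0.43 (edgeR adjusted p = 0.000138) at 4.8 ± 2.27 CPM in siCtrl1-3 and 1.5 ± 0.169 CPM in siCtrl4-6. BSN, the presynaptic scaffold bassoon, had -3.91 ± 0.52 (edgeR adjusted p = 0.000563) at 9.51 ± 4.23 CPM in siCtrl1-3 and 2.35 ± 1.04 CPM in siCtrl4-6. ANG, a secreted ribonuclease whose exons overlap those of another gene, had -3.75 ± 0.44 (edgeR adjusted p = 0.000232) at 1.2 ± 0.118 CPM in siCtrl1-3 and 0.717 ± 0.308 CPM in siCtrl4-6. CDK5R2, a neuronal activator of CDK5, had -3.72 ± 0.89 (edgeR adjusted p = 0.0148) at 0.891 ± 0.668 CPM in siCtrl1-3 and 0.181 ± 0.0334 CPM in siCtrl4-6.

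Rises after siCHD3 without a called siCHD4 response were seen for 323 genes with a lower difference. FGFBP2, a secreted protein of cytotoxic lymphocytes (ENSG00000137441, minus strand of GRCh37 chromosome 4 from 15961868 to 15970932), measured 37.8, 33.2 and 32.3 CPM in the siCHD4 libraries against 33.6, 35.5 and 32.2 CPM in siCtrl1-3. In siCHD3, FGFBP2 had 32.9, 37.5 and 34.8 CPM against 3.8, 3.82 and 4.94 CPM in siCtrl4-6. Only siCtrl4-6 stood apart, and the other 3 groups overlapped at 32.2 to 37.8 CPM. The log2 difference of -3.04 ± 0.23 (edgeR adjusted p = 1.24e-05) matched the control gap of 3.01 in size, and siCHD4 minus siCHD3 was -0.03. SNN, the small membrane protein stannin, had -2.57 ± 0.24 (edgeR adjusted p = 4.45e-05) with a control gap of 2.81 at 85.2 ± 8.77 CPM in siCtrl1-3 and 12.1 ± 1.87 CPM in siCtrl4-6. NUTF2, a nuclear import factor for Ran, had -2.54 ± 0.22 (edgeR adjusted p = 3.76e-05) with a control gap of 2.31 at 177 ± 6.57 CPM in siCtrl1-3 and 35.9 ± 6.04 CPM in siCtrl4-6. CCM2, a scaffold of the cerebral cavernous malformation complex, had -3.98 ± 0.39 (edgeR adjusted p = 6.83e-05) with a control gap of 2.71 at 23 ± 7.3 CPM in siCtrl1-3 and 3.5 ± 1.04 CPM in siCtrl4-6.

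In 613 called genes neither response was called alone, and in all 613 the fitted responses had opposite signs, which this selection favours. TRIM63, a muscle ubiquitin ligase, measured 274, 264 and 271 CPM in the siCHD4 libraries against 137, 132 and 174 CPM in siCtrl1-3. In siCHD3, TRIM63 had 140.1, 133 and 164 CPM against 246, 238 and 274 CPM in siCtrl4-6. The siCHD4 and siCtrl4-6 ranges overlapped, as did siCtrl1-3 and siCHD3, and the log2 difference was 1.66 ± 0.22 (edgeR adjusted p = 0.000467) from 0.87 after siCHD4 and -0.79 after siCHD3. FZD7, a Wnt receptor, showed the reverse arrangement with -1.66 ± 0.19 (edgeR adjusted p = 0.000214) at 53.8 ± 2.74 CPM in siCtrl1-3 and 26.5 ± 1.03 CPM in siCtrl4-6. CAMKK2, a calcium-dependent kinase upstream of AMPK, had -1.51 ± 0.20 (edgeR adjusted p = 0.000472) at 48.9 ± 3 CPM in siCtrl1-3 and 27.1 ± 1.88 CPM in siCtrl4-6. These genes passed both thresholds only when both responses were set against each other. Each response of TRIM63 lay under the fold threshold, so a response not called is not an absent one. Median responses after siCHD4 and siCHD3 were 0.81 and -0.77 for the 229 higher genes, and -0.65 and 0.71 for the 384 lower ones.

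Other genes moved the same way after both silencings. TKTL1, a transketolase-like enzyme, rose after both, by 3.84 after siCHD4 and 1.25 after siCHD3, with a log2 difference of 2.59 ± 0.39 (edgeR adjusted p = 0.00118) at 0.435 ± 0.0701 CPM in siCtrl1-3 and 0.57 ± 0.122 CPM in siCtrl4-6. CTLA4, a T cell checkpoint receptor, rose by 2.44 after siCHD4 and 1.15 after siCHD3, with 1.28 ± 0.30 (edgeR adjusted p = 0.0131) at 10.2 ± 2.75 CPM in siCtrl1-3 and 19.4 ± 3.84 CPM in siCtrl4-6. OGDHL, an enzyme of the oxoglutarate dehydrogenase type, rose by 3.01 after siCHD4 and 1.13 after siCHD3, with 1.88 ± 0.36 (edgeR adjusted p = 0.00438) at 1.55 ± 0.604 CPM in siCtrl1-3 and 0.558 ± 0.0755 CPM in siCtrl4-6. KIAA0319, a membrane protein of neurons, was the only gene that fell after both silencings and was also called in the difference, with responses of -3.40 after siCHD4 and -1.07 after siCHD3 at 2.76 ± 0.437 CPM in siCtrl1-3 and 1.41 ± 0.153 CPM in siCtrl4-6. SERPINB2, a urokinase inhibitor, fell by a similar amount after each silencing (-1.91 after siCHD4 and -1.94 after siCHD3). Its log2 difference was 0.03 ± 0.45 (95% interval -0.94 to 1.00, edgeR adjusted p = 0.978) at 5.54 ± 1.72 CPM in siCtrl1-3 and 18.1 ± 2.98 CPM in siCtrl4-6.

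A list of RT-qPCR targets, chosen on the siCHD4 and siCtrl1-3 samples and so no independent evidence of direction, had 10 members with enough counts. In the difference of responses 5 of these 10 were higher and 2 lower. Beside ATP2B3 and MAP2, RAC2, a GTPase of blood cells, had 7.04 ± 0.80 (edgeR adjusted p = 0.000202) at 0.0262 ± 0.00374 CPM in siCtrl1-3 and 0.122 ± 0.0707 CPM in siCtrl4-6. CNTFR, a receptor of ciliary neurotrophic factor, had 4.13 ± 0.58 (edgeR adjusted p = 0.000781) at 1.28 ± 0.946 CPM in siCtrl1-3 and 0.803 ± 0.171 CPM in siCtrl4-6, and THY1, a surface glycoprotein, had 4.42 ± 0.86 (edgeR adjusted p = 0.00499) at 0.0663 ± 0.0574 CPM in siCtrl1-3 and 0.149 ± 0.0307 CPM in siCtrl4-6. ARHGAP44, a GTPase-activating protein, had -3.54 ± 0.49 (edgeR adjusted p = 0.000688) at 0.839 ± 0.212 CPM in siCtrl1-3 and 0.448 ± 0.092 CPM in siCtrl4-6. RBP4, a retinol carrier, missed the threshold at 2.66 ± 0.84 (edgeR adjusted p = 0.053) and 0.0726 ± 0.0421 CPM in siCtrl1-3 and 0.147 ± 0.0192 CPM in siCtrl4-6, and edgeR called it without siCtrl replicate 3 (adjusted p = 0.0198) and without siCHD3 replicate 3 (adjusted p = 0.0459). PKP1, a desmosomal plaque protein, stood at 0 to 2 counts in each of siCtrl1-3, siCHD3 and siCtrl4-6 taken as groups, so no difference is given.

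The melanocyte regulators and the pyruvate kinase PKM were not called. MITF had a log2 difference of 0.24 ± 0.41 (edgeR adjusted p = 0.756) at 541 ± 240.5 CPM in siCtrl1-3 and 729 ± 99.6 CPM in siCtrl4-6, and SOX10 had -0.87 ± 0.49 (edgeR adjusted p = 0.271) at 1135 ± 766 CPM in siCtrl1-3 and 437 ± 78.2 CPM in siCtrl4-6. PKM had -0.46 ± 0.42 (edgeR adjusted p = 0.521) at 4760.0 ± 2756 CPM in siCtrl1-3 and 1951 ± 397 CPM in siCtrl4-6. Control levels of SOX10 and PKM rested on siCtrl replicate 3, and the p-values that miss the threshold do not show equal responses.

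How much of each difference came from the control groups was read from the gap siCtrl1-3 minus siCtrl4-6 (control gap) beside siCHD4 minus siCHD3 (silenced gap), which differ by exactly the difference of responses. The control gap was the larger of these in 412 of the 1059 genes with a higher difference (38.9%) and in 601 of the 966 with a lower difference (62.2%), against 54.6% of all genes tested. Median values were -0.91 for the control gap and 1.39 for the silenced gap among higher genes, and 0.97 and -0.58 among lower genes. The silenced groups lay within 0.5 log2 units of each other in 196 of the 1059 higher genes, 416 of the 966 lower genes and 8190 of the 17357 genes tested. The control groups lay within 0.5 of each other in 283 higher genes, 191 lower genes and 7164 of all tested. By class, the share with a larger control gap was 28.6% for genes higher after siCHD4 and lower after siCHD3, 25.5% for those called higher after siCHD4 only, 60.1% for those called lower after siCHD3 only and 51.1% for higher genes called in neither response. Among lower genes it was 72.2% for genes lower after siCHD4 and higher after siCHD3, 41.8% for those called lower after siCHD4 only, 71.5% for those called higher after siCHD3 only and 65.4% for those called in neither response. No test was made of these shares, since the calls and the gaps rest on the same libraries.

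**Figure D3:**
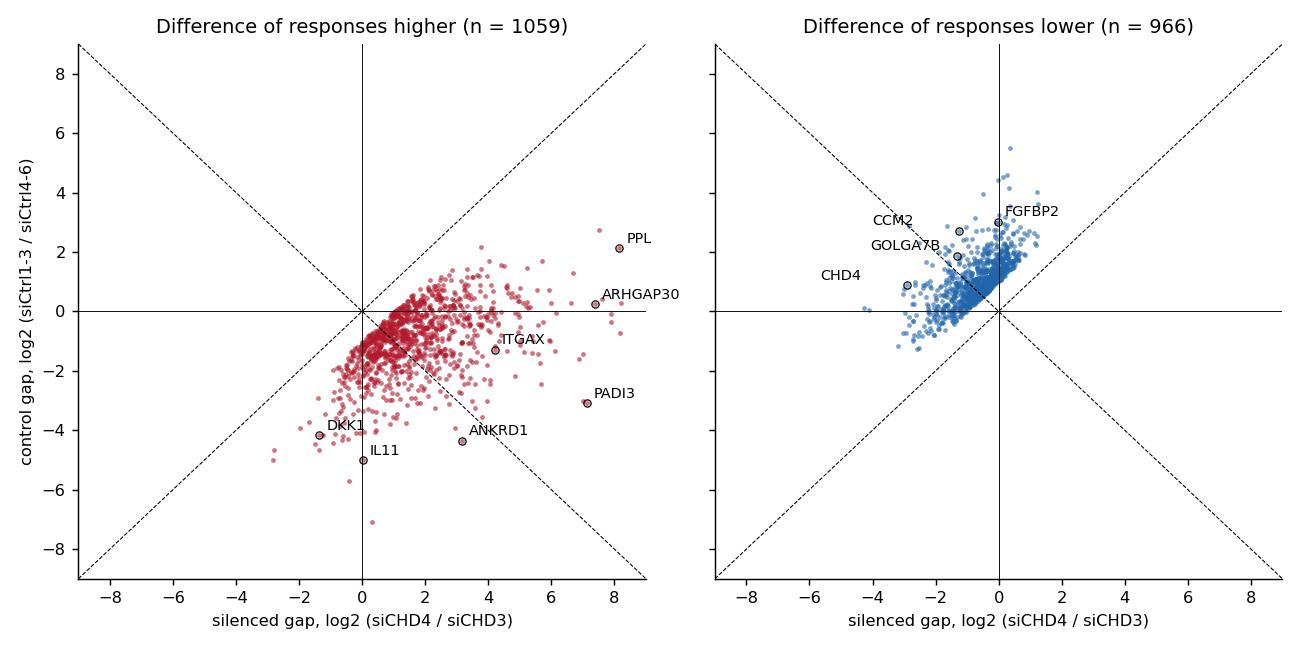
Control gap (siCtrl1-3 over siCtrl4-6, log2, vertical axis) against silenced gap (siCHD4 over siCHD3, log2, horizontal axis) for the 1059 genes with a higher difference (left) and the 966 with a lower one (right), with dashed lines where both gaps are of equal size. Genes near the vertical zero line, such as IL11 (left) and FGFBP2 (right), differ between the control groups, and 196 of the 1059 higher and 416 of the 966 lower genes have a silenced gap under 0.5, against 8190 of the 17357 tested.

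Genes with a higher difference were little expressed in the controls. Their median level was 0.587 CPM in siCtrl1-3 and 1.03 CPM in siCtrl4-6, and 52.8% had a mean under 1 CPM over both, against 28.0% of all genes tested. Genes with a lower difference had medians of 15.9 and 8.55 CPM, and 12.3% lay under 1 CPM. A gene that is near silent in the controls passes the read filter mainly where a silencing raised it, so the counts for low genes lean on the filter. Gene types differed too. Long non-coding RNAs made up 25.4% of genes with a higher difference (269 genes) and 3.73% of those with a lower difference (36), against 13.0% of all tested, and without siCtrl replicate 3 these shares were 25.3% and 5.17%. They were not read within levels of control expression, so gene type and level cannot be told apart here.

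Gene lists were described by the members called, beside 6.10% higher and 5.57% lower of all genes tested. They were also described by their median, beside -0.06 for all genes tested, a median that turned to 0.05 without siCtrl replicate 3. Of 22 blood and immune cell genes tested from a list of 40, 14 were higher in the difference (63.6%) and 0 lower. Their median log2 difference was 3.25 (medians of 2.25 after siCHD4 and -0.55 after siCHD3). DESeq2, voom and an unadjusted p under 0.05 also gave 0 lower. Members near silent outside siCHD4 can hardly be called lower, such as RAC2 with 379 counts against 5 in siCtrl1-3, 7 in siCHD3 and 17 in siCtrl4-6. Such genes pass the read filter mainly through siCHD4, so the 0 lower and the median lean on the filter. Absent from the genes tested were the defining leukocyte genes PTPRC, CD3E and SPI1, which did not pass the read filter or had no counts in both tables. The list sum was 76.0 to 81.4 CPM in siCHD4 against 25.6 to 34.1 CPM in siCtrl1-3, and 22.3 to 39.9 CPM in siCHD3 against 23.2 to 25.5 CPM in siCtrl4-6. Besides ITGAX, RAC2 and ARHGAP30, HCLS1, a signalling adaptor of blood cells, had 3.45 ± 0.30 (edgeR adjusted p = 3.53e-05) at 0.764 ± 0.0417 CPM in siCtrl1-3 and 0.47 ± 0.0266 CPM in siCtrl4-6, and SELPLG, the ligand of P-selectin, had 2.54 ± 0.29 (edgeR adjusted p = 0.000192) at 1.81 ± 0.274 CPM in siCtrl1-3 and 5.57 ± 0.864 CPM in siCtrl4-6. GNLY, the granulysin of cytotoxic lymphocytes, had 3.82 ± 0.59 (edgeR adjusted p = 0.00131) at 0.334 ± 0.176 CPM in siCtrl1-3 and 0.176 ± 0.0536 CPM in siCtrl4-6, named after its value was seen.

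Lists of other lineages moved the same way only in part. Among 25 neuronal and synaptic genes tested 2 were higher (8%) and 6 lower (24%), with a median log2 difference of -0.514. Among 20 epidermal and desmosome genes 2 were higher (10%) and 1 lower (5%). Among 8 fibroblast markers 2 were higher (25%) and 0 lower. Among 11 endothelial genes tested 3 were higher (27.3%) and 0 lower. Among 24 germ cell and cancer-testis genes 6 were higher (25%) and 0 lower. Among 24 striated muscle genes 4 were higher (16.7%) and 0 lower (7 and 0 without siCtrl replicate 3). All genes tested gave 6.10% higher and 5.57% lower. Members near silent in the controls can hardly be called lower, so the 0 lower leans on the read filter. By an unadjusted p under 0.05, 0 endothelial, 4 germ cell and 1 striated muscle gene were lower. In the endothelial, germ cell and striated muscle lists DESeq2 called 0 lower, and voom called 1 germ cell gene lower. TIE1, an endothelial receptor, had 3.72 ± 0.78 (edgeR adjusted p = 0.00757) at 0.257 ± 0.204 CPM in siCtrl1-3 and 0.223 ± 0.0701 CPM in siCtrl4-6. MAGEA10 and MAGEC2, cancer-testis antigens on the X chromosome, had 1.91 ± 0.27 (edgeR adjusted p = 0.00085) at 9.79 ± 2.36 CPM in siCtrl1-3 and 6.9 ± 1.07 CPM in siCtrl4-6, and 1.81 ± 0.27 (edgeR adjusted p = 0.00107) at 3.4 ± 0.828 CPM in siCtrl1-3 and 2.06 ± 0.172 CPM in siCtrl4-6. MYOZ2, a calcineurin-binding protein of the sarcomere, had 2.60 ± 0.50 (edgeR adjusted p = 0.00498) at 1.47 ± 0.311 CPM in siCtrl1-3 and 5.78 ± 1.51 CPM in siCtrl4-6. Of 45 cytokine and growth factor receptors 12 were higher (26.7%) and 2 lower (4.44%). CSF2RA, a receptor subunit for GM-CSF, had 1.77 ± 0.24 (edgeR adjusted p = 0.000529) at 11.9 ± 1.7 CPM in siCtrl1-3 and 19.7 ± 1.39 CPM in siCtrl4-6, and IL17RD, an inhibitor of FGF signalling, had -2.64 ± 0.35 (edgeR adjusted p = 0.000542) at 9.63 ± 3.29 CPM in siCtrl1-3 and 4.89 ± 0.466 CPM in siCtrl4-6.

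Lists tied to undifferentiated melanoma and growth signalling held more higher than lower members. Shares higher were 53.8% (undifferentiated melanoma), 26.3% (YAP and TEAD), 18.5% (cytokines and chemokines) and 25.8% (immediate early and ERK), against 6.10% of all genes tested. In the same order, shares lower were 7.69%, 5.26%, 7.41% and 6.45%, against 5.57%. A higher difference was not always a rise after siCHD4. The siCHD4 response called 1, 2, 4 and 0 members higher and 1, 0, 1 and 2 lower. The siCHD3 response called 1, 0, 1 and 1 higher and 8, 6, 6 and 5 lower. Median control gaps were -0.592, -0.235, -0.914 and -0.675, and median silenced gaps 0.415, 0.316, 0.0169 and 0.0645. Of 13 genes that mark undifferentiated melanoma 7 were higher and 1 lower, and the medians were 1.83 for the difference, 0.08 for the siCHD4 response and -1.93 for the siCHD3 response, in which 8 of the 13 fell. Their list sum was 24.4 to 34.0 CPM in siCHD4 against 26.6 to 39.0 CPM in siCtrl1-3, and 18.6 to 29.1 CPM in siCHD3 against 79.3 to 93.5 CPM in siCtrl4-6. Only siCtrl4-6 stood apart in this sum. The receptor gene NGFR, with overlapping exons, had 3.14 ± 0.60 (edgeR adjusted p = 0.00471) at 0.185 ± 0.0851 CPM in siCtrl1-3 and 2.56 ± 0.419 CPM in siCtrl4-6. WNT5A, a non-canonical Wnt ligand and the lower member, had -2.24 ± 0.48 (edgeR adjusted p = 0.00848) at 3.07 ± 0.757 CPM in siCtrl1-3 and 1.94 ± 0.611 CPM in siCtrl4-6, named after its value was seen. Of 19 YAP and TEAD targets 5 were higher and 1 lower. Of 27 secreted cytokines and chemokines 5 were higher and 2 lower (8 and 2 of 29 without siCtrl replicate 3), among them IL24, with overlapping exons, at 3.85 ± 0.35 (edgeR adjusted p = 4.24e-05) and 4.51 ± 1.34 CPM in siCtrl1-3 and 48 ± 5.58 CPM in siCtrl4-6. Of 31 immediate early and ERK output genes 8 were higher and 2 lower. The ERK phosphatase DUSP5 had 1.36 ± 0.20 (edgeR adjusted p = 0.000962) at 12.5 ± 0.864 CPM in siCtrl1-3 and 30.6 ± 0.935 CPM in siCtrl4-6, and JUND, an AP-1 subunit and a lower member, had -2.50 ± 0.39 (edgeR adjusted p = 0.00138) at 34.5 ± 13.7 CPM in siCtrl1-3 and 6.39 ± 1.13 CPM in siCtrl4-6.

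**Figure D4:**
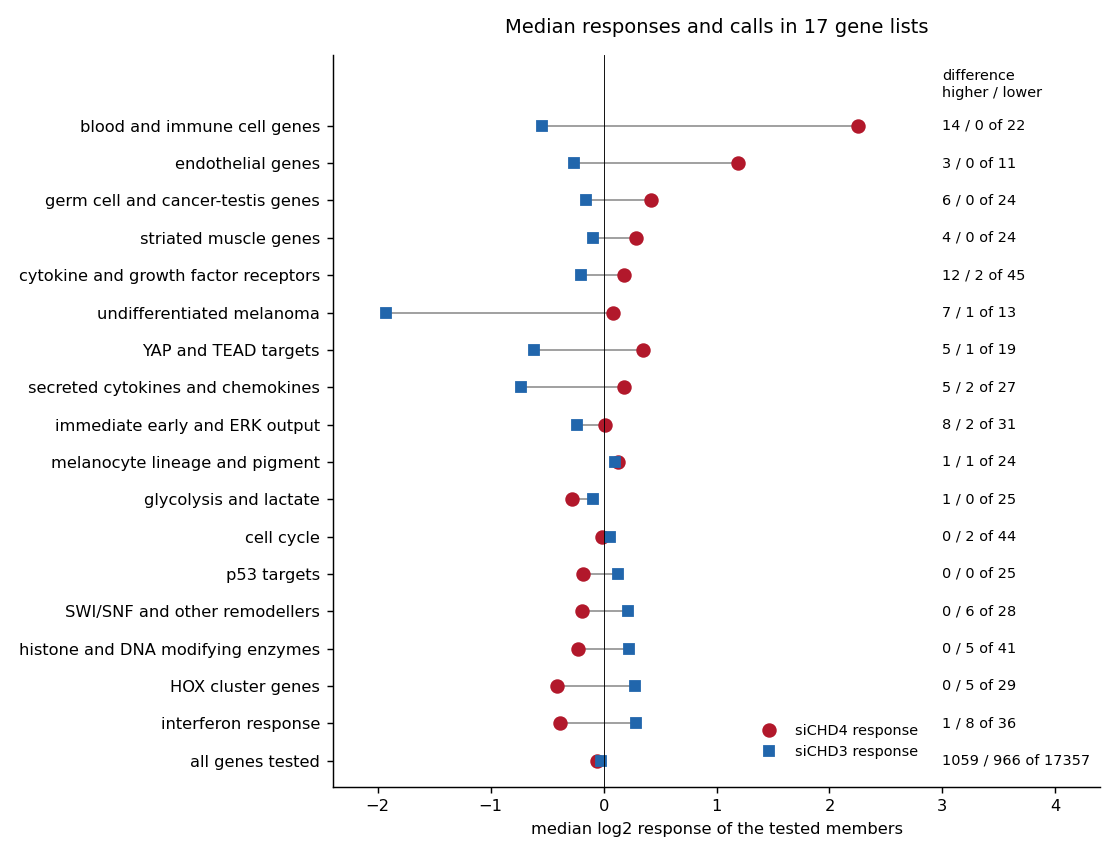
Median log2 siCHD4 response (circles) and siCHD3 response (squares) of the tested members of 17 gene lists and of all genes tested, with the numbers called higher and lower in the difference at the right. Blood and immune cell genes have medians of 2.25 and -0.55 (14 of 22 higher in the difference), and undifferentiated melanoma genes have medians of 0.08 and -1.93 (7 of 13 higher).

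Lists of chromatin regulators, HOX genes and interferon-response genes held more lower than higher members. Shares lower were 21.4% (remodellers), 12.2% (modifying enzymes), 17.2% (HOX) and 22.2% (interferon), against 5.57% of all genes tested. In the same order, median control gaps were 0.46, 0.49, 0.30 and 0.39, and median silenced gaps -0.07, -0.10, -0.24 and -0.17. The siCHD4 response called 0 remodellers and 0 modifying enzymes. The remodeller list sum overlapped between siCHD4 (2930 to 3280 CPM) and siCHD3 (2910 to 3470 CPM). Of 28 SWI/SNF and other remodeller genes 6 were lower and 0 higher, with a median of -0.46, and 8 were lower and 1 higher at an unadjusted p under 0.05. DESeq2 called 6 lower and 1 higher, and voom 5 and 0. SMARCA4, the BRG1 ATPase (ENSG00000127616, plus strand of GRCh37 chromosome 19 from 11071608 to 11190102), measured 204, 249.8 and 235 CPM in the siCHD4 libraries against 266, 364 and 639 CPM in siCtrl1-3. In siCHD3, SMARCA4 had 184, 230.4 and 238 CPM against 56.3, 83.8 and 88.3 CPM in siCtrl4-6. Its siCtrl4-6 libraries lay below all others, siCtrl1-3 lay highest, and the siCHD4 and siCHD3 ranges overlapped. The log2 difference of -2.39 ± 0.40 (edgeR adjusted p = 0.002) sat beside a control gap of 2.47 and a silenced gap of 0.08. ARID1A, a DNA-binding subunit of the same complexes, had -1.53 ± 0.25 (edgeR adjusted p = 0.00157) at 171 ± 15.8 CPM in siCtrl1-3 and 77.4 ± 12.5 CPM in siCtrl4-6. CHD8, a CHD family helicase outside NuRD, had -1.86 ± 0.24 (edgeR adjusted p = 0.00043) at 209 ± 27.3 CPM in siCtrl1-3 and 45.3 ± 2.3 CPM in siCtrl4-6. Of 41 histone and DNA modifying enzymes 5 were lower and 0 higher, and 19 were lower and 1 higher at an unadjusted p under 0.05, with 5 and 0 by DESeq2 and 6 and 0 by voom. The deacetylase HDAC4 had -1.38 ± 0.25 (edgeR adjusted p = 0.00302) at 24.9 ± 3.42 CPM in siCtrl1-3 and 9.7 ± 1.64 CPM in siCtrl4-6, and the DNA methyltransferase DNMT3B had -1.33 ± 0.22 (edgeR adjusted p = 0.00177) at 29.1 ± 2.8 CPM in siCtrl1-3 and 12.4 ± 0.927 CPM in siCtrl4-6.

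Of 29 HOX genes 5 were lower and 0 higher, with 12 lower and 1 higher at an unadjusted p under 0.05, 5 and 0 by DESeq2, and 7 and 1 by voom. HOXA10, a patterning factor, had -1.61 ± 0.24 (edgeR adjusted p = 0.00104) at 10.9 ± 1.98 CPM in siCtrl1-3 and 5.76 ± 0.62 CPM in siCtrl4-6, and it rose after siCHD3 (1.87). HOXD12 had -1.88 ± 0.30 (edgeR adjusted p = 0.00158) at 1.24 ± 0.103 CPM in siCtrl1-3 and 0.588 ± 0.0512 CPM in siCtrl4-6. Of 36 interferon-response genes 8 were lower and 1 higher, with a median of -0.70, and 10 and 3 without siCtrl replicate 3. IFIT2, an antiviral RNA-binding protein, fell after siCHD4 (-1.59) and rose after siCHD3 (1.60), with -3.18 ± 0.46 (edgeR adjusted p = 0.000892) at 2.23 ± 0.875 CPM in siCtrl1-3 and 1.11 ± 0.263 CPM in siCtrl4-6. OAS1, an oligoadenylate synthetase, had -2.32 ± 0.34 (edgeR adjusted p = 0.000962) at 3.64 ± 0.456 CPM in siCtrl1-3 and 1.1 ± 0.134 CPM in siCtrl4-6, and IFI44 had -1.92 ± 0.31 (edgeR adjusted p = 0.00155) at 14.7 ± 3.8 CPM in siCtrl1-3 and 11 ± 1.18 CPM in siCtrl4-6. OAS2, a relative of OAS1 and the higher member, had 1.67 ± 0.40 (edgeR adjusted p = 0.0155) at 0.754 ± 0.232 CPM in siCtrl1-3 and 0.683 ± 0.159 CPM in siCtrl4-6, named after its value was seen.

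Further lists are set beside the 6.10% higher and 5.57% lower of all genes tested. Of 24 melanocyte lineage and pigment genes 1 was higher and 1 lower (4.17% each), close to those shares, with a median of 0.03 (0.195 without siCtrl replicate 3), and their list sum was 26900 to 27500 CPM in siCHD4 against 20900 to 25400 CPM in siCtrl1-3, and 16800 to 21900 CPM in siCHD3 against 17500 to 18900 CPM in siCtrl4-6. ERBB3, a neuregulin receptor, was lower at -1.37 ± 0.31 (edgeR adjusted p = 0.011) and 7.42 ± 0.621 CPM in siCtrl1-3 and 6.89 ± 1.18 CPM in siCtrl4-6. TRPM1, a melanocyte cation channel, was higher at 1.04 ± 0.24 (edgeR adjusted p = 0.0123) and 180.2 ± 4.55 CPM in siCtrl1-3 and 339 ± 38.8 CPM in siCtrl4-6, and its value fell under the fold threshold without siCHD4 replicate 1 (0.995), siCtrl replicate 4 (0.95) or siCHD3 replicate 1 or 2 (0.91 and 0.97). Of 25 glycolysis genes only ENO2 was called (4%), and 3 were higher without siCtrl replicate 3. Of 44 cell cycle genes 2 were lower (4.55%, and 1 without siCtrl replicate 3) and 0 higher (5 and 4 at an unadjusted p under 0.05, 2 and 0 by DESeq2, 3 and 0 by voom), and MKI67, a proliferation marker, had -1.35 ± 0.27 (edgeR adjusted p = 0.00561) at 535 ± 94.8 CPM in siCtrl1-3 and 256 ± 42.5 CPM in siCtrl4-6. Of 25 p53 targets edgeR called 0, with 2 higher and 3 lower at an unadjusted p under 0.05, 0 by DESeq2, and 3 higher and 1 lower by voom, and 4 were higher and 1 lower without siCtrl replicate 3. Of 60 ribosomal protein genes edgeR, DESeq2 and voom called 0, with 0 higher and 3 lower at an unadjusted p under 0.05.

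Promoters of genes with a higher and a lower difference held different numbers of CpG sites. CpG sites, the dinucleotides at which vertebrate DNA is methylated, are clustered at most promoters of widely expressed genes and sparse at many tissue-specific ones. They were counted as the letters CG, which read the same on both strands, from 250 bases before to 50 bases after the start of each gene on GRCh37. Windows were found for 96.9% of genes with a higher difference, 96.3% of those with a lower difference and 95.8% of all tested. The promoters shown were picked as examples from the genes described above, a CpG-poor pair with a higher difference (UCN2 and PADI1) and a CpG-rich pair with a lower one (CCDC92 and GOLGA7B). Other genes described above go the other way. With a higher difference, MCAM has 29 CpG sites and ENO2 38, and with a lower one FGFBP2 has 7 and MAP2 5. The promoters shown are RefSeq sequences of GRCh38.p14, written 5′ to 3′ on the gene's strand with each CpG in capitals. UCN2 lies at chr3:48563732-48564031, minus strand, 3 CpG sites, PADI1 at chr1:17204878-17205177, plus strand, 4 CpG sites, CCDC92 at chr12:123972782-123973081, minus strand, 45 CpG sites and GOLGA7B at chr10:97849593-97849892, plus strand, 27 CpG sites.
UCN2: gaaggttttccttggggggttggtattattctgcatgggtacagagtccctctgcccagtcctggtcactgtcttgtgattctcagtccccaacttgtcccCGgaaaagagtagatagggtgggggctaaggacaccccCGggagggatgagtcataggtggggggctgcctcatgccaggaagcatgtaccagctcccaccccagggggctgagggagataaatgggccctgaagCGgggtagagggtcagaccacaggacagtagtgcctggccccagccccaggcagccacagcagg
PADI1: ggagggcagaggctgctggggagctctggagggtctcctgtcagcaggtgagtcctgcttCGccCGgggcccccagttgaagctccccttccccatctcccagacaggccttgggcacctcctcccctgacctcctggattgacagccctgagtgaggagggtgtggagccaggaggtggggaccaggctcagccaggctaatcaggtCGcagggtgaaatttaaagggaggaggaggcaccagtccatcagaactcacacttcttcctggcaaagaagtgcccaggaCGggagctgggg
CCDC92: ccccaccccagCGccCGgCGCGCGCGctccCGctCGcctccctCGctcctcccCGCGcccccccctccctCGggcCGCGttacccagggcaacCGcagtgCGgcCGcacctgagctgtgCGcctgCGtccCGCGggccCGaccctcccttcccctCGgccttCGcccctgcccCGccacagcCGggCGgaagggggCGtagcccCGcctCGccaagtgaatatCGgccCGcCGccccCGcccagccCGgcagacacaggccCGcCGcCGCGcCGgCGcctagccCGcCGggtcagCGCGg
GOLGA7B: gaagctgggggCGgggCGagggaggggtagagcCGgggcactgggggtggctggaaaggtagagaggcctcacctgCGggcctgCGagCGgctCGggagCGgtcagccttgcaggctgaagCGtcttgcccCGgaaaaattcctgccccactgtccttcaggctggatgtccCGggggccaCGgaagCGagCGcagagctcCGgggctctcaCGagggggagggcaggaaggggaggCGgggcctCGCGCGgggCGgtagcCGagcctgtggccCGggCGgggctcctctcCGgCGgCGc

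Over all windows, the median number of CpG sites was 12 for genes with a higher difference and 28 for those with a lower difference, against 25 for all genes tested. Windows with under 10 CpG sites made up 45.8% of the higher genes (470), 13.3% of the lower genes (124) and 20.5% of all. Low-expressed genes have fewer CpG sites in general, so the shares were also read within levels of control expression. At a control mean of 1 CPM or more, 34.4% of higher genes, 9.66% of lower genes and 9.91% of all had under 10 sites, and below 1 CPM the shares were 56.1%, 43.1% and 49.7%. Among protein-coding genes they were 37.6%, 11.0% and 11.1%. Within the higher genes, the share was 58.4% where siCHD4 raised and siCHD3 lowered the gene, 50.9% where siCHD4 alone raised it, 42.2% where siCHD3 alone lowered it and 32.9% where neither response was called. In the same order, these shares were 58.5%, 57.2%, 59.5% and 45.9% below 1 CPM. At 1 CPM or more they were 58.3%, 36.6%, 32.4% and 26.5%. Without siCtrl replicate 3 the shares were 42.7% for higher and 14.9% for lower genes. These counts describe the sequence and say nothing of methylation, which was not measured here.

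**Figure D5:**
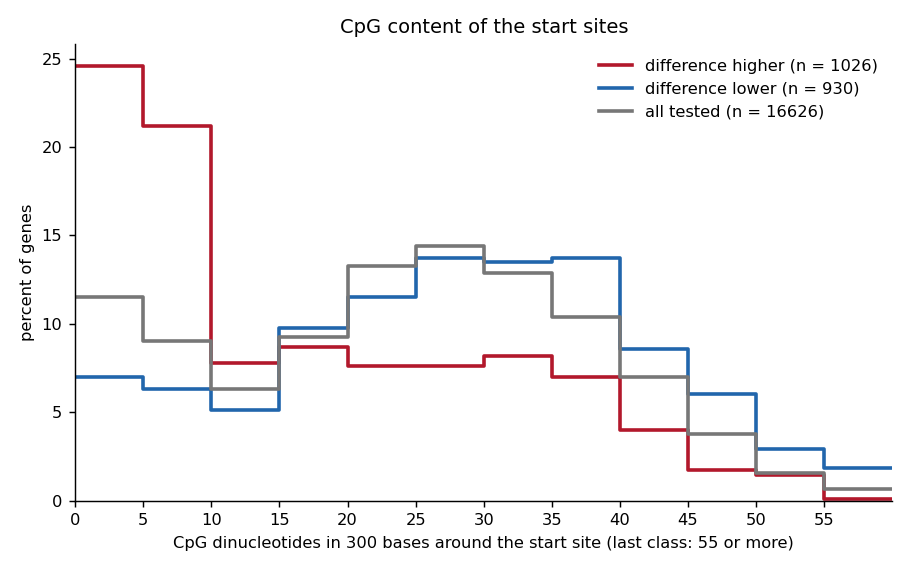
Share of genes (vertical axis, percent) by number of CpG sites in the 300 bases around the start (horizontal axis) for genes with a higher difference, genes with a lower difference and all genes tested. The higher genes pile up at few sites (median 12, 45.8% under 10), and the lower genes follow all genes tested (medians 28 and 25).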

How the data were processed

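Sample labels gave 4 groups of 3 libraries, 1 cell line and 1 time (72 h). Raw counts of reads for each Ensembl gene, deposited in 2 tables, were the values used. The authors also deposited normalized signal (counts over 1 size factor per library, also divided by gene length), log2 fold changes and p-values of their own comparisons, none of which was used. According to the submitters' processing notes, the build was hg19 and the tools were HTSeq, DESeq2, TopHat2 2.0.10, Bowtie2 2.1.0 and 2.2.8, cutadapt 1.10 and CASAVA 1.8.2. Strand and annotation release of the counting were not given in the sources used here, so counts of overlapping genes are uncertain (15 of 169 named genes share over 20% of exon bases). All columns of per-sample values were assigned, and 5 rows naming no gene held no counts and were left out.

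Genes with counts in both tables were filtered with filterByExpr over the 4 groups, scaled by TMM and tested in 1 fit of 12 libraries with the edgeR 4.0.16 quasi-likelihood test (robust, R 4.3.3), with Benjamini-Hochberg adjustment over all genes tested. CPM use TMM-scaled totals, errors of log2 values are standard errors, and those of CPM are SD over 3 libraries. Alternatives used RLE scaling, DESeq2 1.42.0, limma 3.58.1 voom with sample weights, other filters, a replicate block and leaving out each library. The members and gene lists were chosen with earlier results of these data known. Named genes were CHD3, CHD4, PADI1, PADI3, MITF, SOX10, PKM and the study's RT-qPCR genes. Added to these were the 12 genes per direction with the largest difference (a mean normalized count of 50 in 1 group, the call kept in 10 or more of the 12 fits without 1 library), and the 4 with the smallest adjusted p per response class and per list. Not every gene this rule names is described, and some are not reported here. Gene coordinates and types are from GENCODE v44lift37 on GRCh37. RefSeq promoters were found for 121 of the 169 named genes.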

Additional observations from a re-analysis of the deposited data

Results flagged for a closer look

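Genes with counts in only 1 of the tables have no difference of responses and stand outside the comparison, but some of them responded within their own table. Of 2759 genes with counts in the siCHD4 table only, 28 had enough reads for a test there, and 10 of these were higher after siCHD4 than in siCtrl1-3 (edgeR, adjusted p under 0.05 and an absolute log2 value over 1). Of 4002 genes with counts in the siCHD3 table only, 348 were tested there, and 12 were higher and 23 lower after siCHD3 than in siCtrl4-6. Whether a gene blank in 1 table had no reads there was not tested.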

How the results depend on the processing

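Counts of calls grew by over 1.5 times with voom and sample weights, which called 1890 genes higher and 1505 lower, 226 of them higher after siCHD4 and lower after siCHD3 and 56 the reverse. Leaving out 1 library gave 780 to 1618 higher and 687 to 1303 lower genes, 68 to 175 and 23 to 60 in opposite directions, and a control gap larger than the silenced gap in 42.5% to 59.5% of called genes (50% with all libraries). The highest counts of higher genes (1618) and of genes higher after siCHD4 and lower after siCHD3 (175) came without siCtrl replicate 3. RLE scaling (1078 and 912), DESeq2 (1305 and 1121), no filter on low counts (1100 and 869), a minimum of 1 CPM in 3 libraries (799 and 720) and, chosen after seeing the data, blank rows read as 0 counts (1050 and 959) stayed within 1.5 times of the main counts, as did fitting each table on its own (71 and 29 in opposite directions). Of the 2025 calls, 1201 were kept in all 12 fits without 1 library, and 0 of the 2025 turned sign under these alternatives that refitted all genes.

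Within a table, only siCHD4 and siCtrl1-3 share replicate numbers, since siCHD3 is numbered 1 to 3 and its siCtrl libraries 4 to 6. Deviations of same-numbered libraries correlated at 0.010, 0.013 and -0.012, and those of differently numbered ones at -0.109 to 0.101. No sign of pairing by number was seen, but with so few libraries this cannot exclude it. With the replicate block in the siCHD4 table, 1087 genes were higher and 910 lower, and 105 and 36 were called in opposite directions.

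Values near 0 turned sign without 1 library. Without siCtrl replicate 3 PKM was 0.17 and MITF -0.042, within ranges over the 12 fits of -0.72 to 0.17 for PKM and -0.042 to 0.52 for MITF. SERPINB2 ranged from -0.24 (without siCHD3 replicate 3) to 0.29 (without siCtrl replicate 1). The cause was not tested. Depth limits genes near silent in the controls, where a fitted change rests on a few reads.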
